A study of Mus musculus with 2 samples.

Results

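The 9 genes described here encode *Itga4*, the α4 integrin chain, other integrin chains that pair with it or that bind fibronectin or collagen (*Itga9*, *Itga5*, *Itgav*, *Itga1*, *Itgb1* and *Itgb7*) and 2 ligands of α4 integrins, *Vcam1* and *Fn1*. They were taken by gene name from the arrays, where they have 14 of 39429 probes and make up 9 of 29924 gene names. Ureters of wild-type newborn NMRI mice (P0) were kept in culture for 18 h, either in 5 µM IWP-2 or, as control, in the solvent DMSO at 1:1000. IWP-2 inhibits Porcupine, the acyltransferase that WNT ligands need for secretion. Each of 2 two-colour Agilent arrays compared 1 control pool with 1 IWP-2 pool of several ureters. The pools were female in replicate 1, with control RNA in the green and IWP-2 RNA in the red channel, and male in replicate 2, with the dyes swapped. Sex, dye orientation and pool cannot be told apart, and the 2 arrays limit the precision of every value.

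Integrins are receptors of an α and a β chain that span the cell membrane and tie matrix or neighbouring cells to actin. The α4 chain pairs with β1 or β7, and the α4β1 receptor binds VCAM1 on other cells and fibronectin in the matrix. It is best known from leukocytes, which use it to leave vessels, and from mesenchymal and neural crest cells of embryos. The α5 and αv chains recognize the RGD motif of fibronectin, α9 is the closest relative of α4, and α1 binds collagens.

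In both arrays *Itga4* was lower with IWP-2, by 2.27-fold on average. The β1 chain and *Vcam1* lay slightly above the control in both arrays, *Fn1* lay below it, and the probes used for the other α chains stayed close to it. *Itga4* was chosen by its lower signal in this comparison, its IWP-2 over control ratio in both arrays, and the other members come from the same comparison, so their values are given as a description, and the counts of calls that follow, made on the values that chose *Itga4*, support nothing about it. Of the 8 members with a mean signal above 100 in a condition, 1 (*Itga4*) was called lower by limma at an adjusted p under 0.05 and 0 were called higher, beside 0.886% lower and 0.363% higher of all 14336 genes tested. This call was lost in 4 of 9 alternative settings, among them the mean of all probes and the fit with no replicate block. *Itga4* was also the 1 member with a control signal above 100 and a change of at least 1.5-fold in each array. These thresholds are those of the study, applied here to 1 probe per gene after loess, so the counts are not the study's own. Of the 14051 genes with such control signals 0.441% passed, 0.363% as lower and 0.0783% as higher. With IWP-2, 4 of the 8 members lay below the control in both arrays and 2 above it, beside 29.1% and 25.7% of all genes tested. At an unadjusted p under 0.05, 4 of the 8 passed (limma; 2 lower and 2 higher), beside 12.9% of all genes tested. The members' median log2 fold change was -0.09, against -0.006 over all genes tested.

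**Figure D1:**
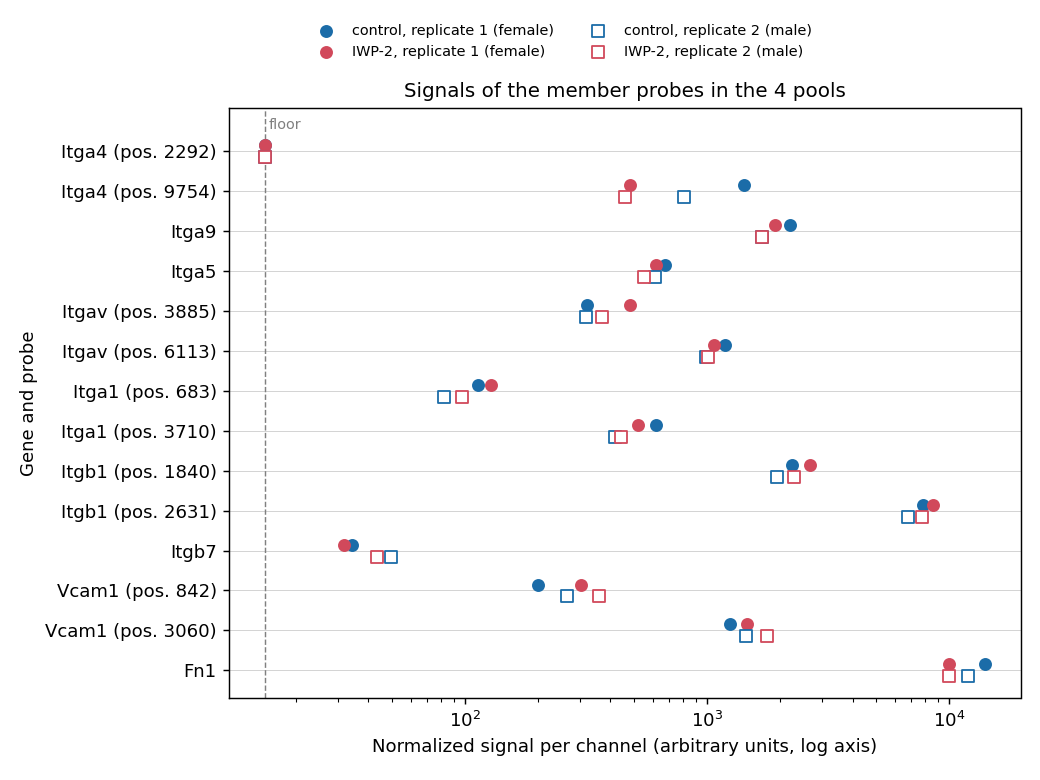
Normalized signal of each of the 14 member probes in the 4 pools, in arbitrary units on a log axis. Blue marks are control and red marks IWP-2 pools, filled circles are replicate 1 (female) and open squares replicate 2 (male), the dashed line is the floor of 15, and pos. is the position of the probe in its transcript. The *Itga4* probe at position 9754 is the member with the widest gap between control and IWP-2, the other *Itga4* probe lies at the floor, and the marks for *Itga9* in replicate 2 overlap.

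On the array 2 probes target *Itga4*, and only the one near the end of the transcript gave signal. It starts at position 9754 of NM_010576 and lies unspliced at chr2:79173193-79173252 (mm9, + strand). The other starts 7462 bases upstream, at position 2292, and its 60 bases are spread over 1131 bases of genome (chr2:79153985-79155115, + strand), so it crosses at least 1 exon junction and is matched in full by spliced RNA only. Both are shown because the *Itga4* values rest on the first alone, of which the first 30 bases are given.
Itga4, position 9754: gtgtgtggaatgcattataaagatctaaca
Itga4, position 2292: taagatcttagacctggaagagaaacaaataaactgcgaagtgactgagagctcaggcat

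At position 9754 the *Itga4* signal was 1421 in the control and 482 in the IWP-2 pool of replicate 1, and 807 in the control and 460.4 in the IWP-2 pool of replicate 2. Both IWP-2 pools thus lay below both controls. The log2 fold change (IWP-2 over control) was -1.56 (2.95-fold lower) in the female and -0.81 (1.75-fold lower) in the male array, with a mean of -1.19 ± 0.53 (SD, n = 2 arrays). The single spots stayed close to these values, from -1.60 to -1.49 over 4 spots in replicate 1 and from -0.82 to -0.79 over 3 spots in replicate 2. The arrays thus differed by more than the spots within an array, and the gap of 0.75 between them was larger than for 99% of the genes tested. By its mean, *Itga4* ranked 18 from the lowest of 14336 genes.

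By signal, the controls of *Itga4* differed more between the arrays than the IWP-2 pools. As sex, dye orientation and pool cannot be told apart, the gap cannot be placed in the control pools. The arrays were not normalized to each other, but over all genes tested the median log2 ratio of replicate 1 to replicate 2 was 0.002 for the controls (SD 0.306) and -0.002 for the IWP-2 pools (SD 0.224). For *Itga4* this ratio was 0.82 between the controls, at the 99.9th percentile of all genes, and 0.07 between the IWP-2 pools, at the 71.5th percentile. Among the other members *Itga1* was the nearest to this, with 0.56 between the controls, at the 99.1st percentile, and 0.24 between the IWP-2 pools. *Vcam1* went the other way, with -0.22 and -0.28.

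At position 2292 the *Itga4* probe was listed at the floor of 15 in all 4 channels. Before the floor was set it gave 5.19 and 3.96 in the control and IWP-2 pools of replicate 1 and 3.66 and 2.21 in those of replicate 2, and it was well above background on 2 of 4 spots in each pool of replicate 1 and on 0 spots in replicate 2. It therefore gives no fold change for the spliced part of the transcript it reads. Such upstream probes were more often dim with distance. Where the downstream probe of a pair in 1 transcript had control signals above 400, the upstream one was at the floor throughout in 1.46% of 1232 pairs that were 500 to 2000 bases apart, in 5.42% of 627 pairs 2000 to 5000 bases apart, and in 25.6% of 117 pairs (100 genes) at least 5000 bases apart. With 7462 bases between its probes, *Itga4* belongs to the last class.

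The remaining α chains lay far closer to the control than *Itga4*. *Itga9* had signals of 2205 and 1921 (control and IWP-2) in replicate 1 and 1689 and 1684 in replicate 2, with log2 fold changes of -0.20 and -0.00. Its single probe lies at chr9:118807900-118807959 (mm9, + strand). In replicate 2 its 4 spots ranged from -0.03 to 0.05, so control and IWP-2 could not be separated there. *Itga5* had signals of 674 and 615 in replicate 1 and 611 and 551 in replicate 2, with log2 fold changes of -0.13 and -0.15. Its probe lies at chr15:103175022-103175081 (mm9, - strand), and all its spots lay below the control. The difference of log2 fold changes (*Itga4* minus the other gene) was -1.36 in replicate 1 and -0.81 in replicate 2 for *Itga9*, and -1.43 and -0.66 for *Itga5*.

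**Figure D2:**
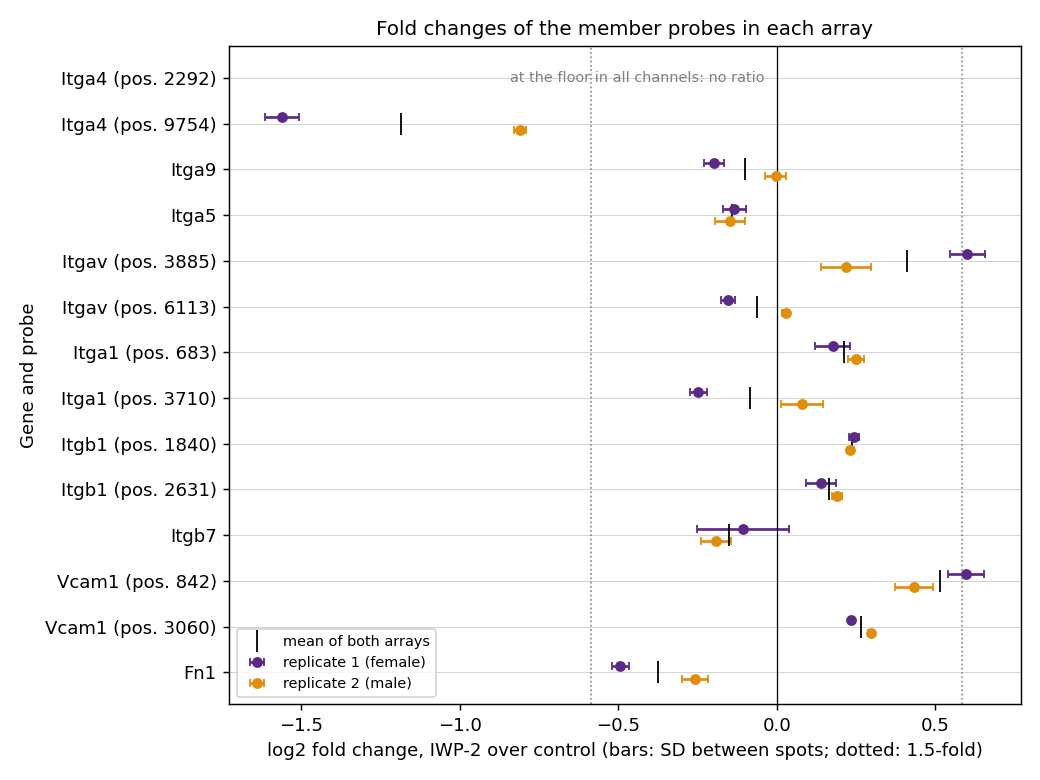
log2 fold change (IWP-2 over control) of the member probes in the female array (purple) and the male array (orange), with bars for the SD between the 3 or 4 spots of a probe, black ticks for the mean of both arrays and dotted lines at a change of 1.5-fold. *Itga4* at position 9754 is beyond the lower line in both arrays, at -1.56 and -0.81, while the 2 probes of *Itgav* and of *Itga1* lie on different sides of 0 by their means.

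For *Itgav* and *Itga1* the answer depended on the probe. The *Itgav* probe at position 6113 (chr2:83646133-83646192, mm9, + strand) gave 1189.7 and 1069 in the control and IWP-2 pools of replicate 1 and 996 and 1016 in those of replicate 2, log2 fold changes of -0.15 and 0.03. The one at position 3885 (chr2:83643905-83643964, + strand) gave 318 and 483 in replicate 1 and 317 and 369 in replicate 2, log2 fold changes of 0.60 and 0.22. The means of these probes were 0.473 apart, more than in 98.9% of 3481 probe pairs of all genes (median 0.0473), so no single direction can be given for *Itgav*.

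*Itga1*, the α chain of a collagen and laminin receptor of smooth muscle and fibroblasts, behaved alike. Its probe at position 683 is spread over chr13:115821387-115825525 and the one at position 3710 over chr13:115756765-115758419 (mm9, - strand), so both cross exon junctions, and they are shown because they differ in sign.
Itga1, position 683: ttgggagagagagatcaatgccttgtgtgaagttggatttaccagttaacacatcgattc
Itga1, position 3710: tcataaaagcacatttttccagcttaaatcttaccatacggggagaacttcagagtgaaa

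The upstream *Itga1* probe gave 113 and 128 (control and IWP-2) in replicate 1 and 82.0 and 97.5 in replicate 2, log2 fold changes of 0.18 and 0.25. The downstream probe gave 616 and 519 in replicate 1 and 417 and 441 in replicate 2, log2 fold changes of -0.25 and 0.08. The means were 0.297 apart, at the 95.5th percentile of all pairs. Only the downstream probe differed in sign between the arrays.

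Of the partners of α4, *Itgb1* lay above and *Itgb7* slightly below the control. *Itgb1*, the β chain of most matrix receptors, was above the control in both arrays with both probes. At position 2631 its signals were 7785 and 8573 (control and IWP-2) in replicate 1 and 6787 and 7738 in replicate 2, log2 fold changes of 0.14 and 0.19. At position 1840 (chr8:131246349-131246408, mm9, + strand) they were 2246 and 2659 in replicate 1 and 1953 and 2294 in replicate 2, log2 fold changes of 0.24 and 0.23. The probe at position 2631 spans the last part of the coding region, spread over chr8:131250081-131255976, and it reads the end of the cytoplasmic tail, the part through which β1 engages the cytoskeleton. The capitals mark the codons of the membrane-proximal repeat, which binds talin, and of the distal repeat, which binds kindlin.
Itgb1, position 2631: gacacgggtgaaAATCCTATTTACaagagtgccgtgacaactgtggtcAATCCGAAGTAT

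*Itgb7*, the second partner of α4 and known from gut-homing lymphocytes, was dim and was not tested. Its signals were 34.2 and 31.7 in replicate 1 and 49.8 and 43.6 in replicate 2 (chr15:102046450-102046509, mm9, - strand). The log2 fold changes of -0.11 and -0.19 compare with single spots from -0.23 to 0.10 in replicate 1, which lie on both sides of 0. The difference of log2 fold changes between *Itga4* and its main partner (*Itga4* minus *Itgb1*) was -1.70 in replicate 1 and -0.9998 in replicate 2.

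Of the ligands, *Vcam1* lay above and *Fn1* below the control. *Vcam1*, the counter-receptor of α4β1 on endothelial and stromal cells, gave 1243 and 1463 (control and IWP-2) in replicate 1 and 1449 and 1781 in replicate 2 at position 3060 (chr3:115813216-115813275, mm9, - strand), log2 fold changes of 0.24 and 0.30. At position 842 (chr3:115828953-115829012, - strand) it gave 199.9 and 302 in replicate 1 and 265 and 357 in replicate 2, log2 fold changes of 0.60 and 0.43. This upstream probe is shown since it had the higher log2 fold change in both arrays.
Vcam1, position 842: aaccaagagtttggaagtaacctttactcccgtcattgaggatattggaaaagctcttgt

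*Fn1*, which encodes fibronectin, gave 14034 and 9966 in replicate 1 and 11969 and 10013 in replicate 2 at position 8296 (chr1:71632116-71632175, mm9, - strand). Both IWP-2 pools lay below both controls, with log2 fold changes of -0.49 and -0.26, a mean change of 1.30-fold (log2 mean -0.38 ± 0.12, SE between the arrays, n = 2). By its mean it ranked 211 from the lowest of all genes tested. As with *Itga4*, the controls differed more between arrays (log2 ratio 0.23) than the IWP-2 pools (-0.01), and the female array had the larger difference. The difference from *Itga4* in log2 fold change (*Itga4* minus *Fn1*) came to -1.07 in replicate 1 and -0.55 in replicate 2.

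In the 4 genes with 2 measured probes, the upstream probe had the higher log2 fold change in both arrays. The excess was 0.42 and 0.17 (replicate 1 and replicate 2) for *Itga1*, 0.76 and 0.19 for *Itgav*, 0.36 and 0.14 for *Vcam1* and 0.11 and 0.04 for *Itgb1*. The same direction was seen across the array. Over all 3481 pairs of probes in 1 transcript with signals above 100, the median excess of the upstream probe was 0.067 in replicate 1 and 0.010 in replicate 2, and it grew with distance. Over the 665 pairs at least 2000 bases apart it was 0.189 in replicate 1 and 0.054 in replicate 2, and the upstream probe was the higher in 85.1% and 68.1% of them. Thus, the position of a probe in its transcript moved with its IWP-2 over control ratio, more so in the female array. The *Itga4* and *Fn1* probes sit far downstream, at positions 9754 and 8296, and the part of probe position in their values was not tested.

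**Figure D3:**
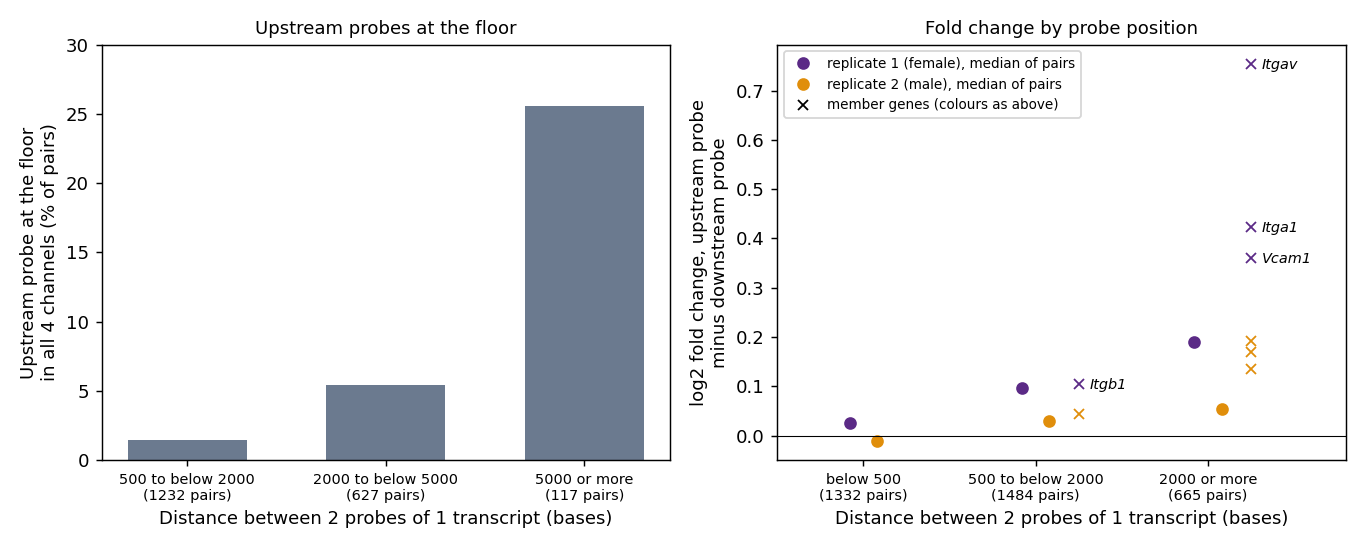
Left, share of probe pairs of 1 transcript with the upstream probe at the floor in every channel (bars, % of pairs), by the distance between the probes in bases, where the downstream control signals were above 400. Right, log2 fold change of the upstream minus the downstream probe, as the median over pairs with signals above 100 (dots) and for *Itgb1*, *Vcam1*, *Itga1* and *Itgav* (crosses), in replicate 1 (purple) and replicate 2 (orange). The share at the floor reached 25.6% at 5000 bases or more, and the median excess reached 0.189 in replicate 1 at 2000 bases or more.

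Another integrin chain was among the genes most like *Itga4*. By the distance between the pairs of log2 fold changes over the 2 arrays, the 5 nearest of all genes tested were *Wif1* (-1.60 and -1.07 in replicate 1 and 2), *Itga10* (-1.28 and -0.78), *D630010B17Rik* (-1.43 and -1.21), *Ptprr* (-1.29 and -1.13) and *5830408B19Rik* (-1.14 and -1.05). *Wif1* encodes a secreted WNT antagonist and *Ptprr* a receptor-type tyrosine phosphatase. *Wif1* was the nearest, at a distance of 0.26 on the log2 scale, and *5830408B19Rik* the farthest of the 5, at 0.48. As a check of the treatment, *Axin2*, a direct WNT target gene, fell from 181 to 42.2 in replicate 1 and from 154 to 46.7 in replicate 2, a mean log2 fold change of -1.91 ± 0.19 (SE between the arrays, n = 2; limma, adjusted p = 0.000826).

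**Figure D4:**
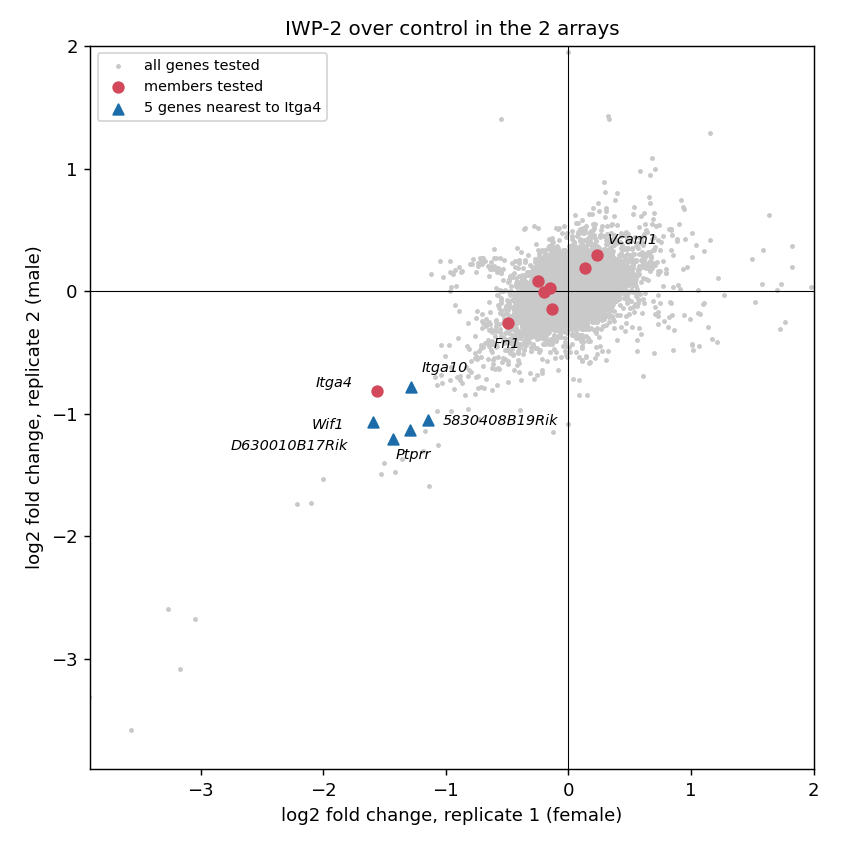
log2 fold change (IWP-2 over control) in the male array against that in the female array for all 14336 genes tested (grey; 5 genes lie outside the plotted range), with the 8 members tested in red and the 5 genes nearest to *Itga4* as blue triangles. *Itga4* and *Itga10* lie in the lower left, at (-1.56, -0.81) and (-1.28, -0.78), while the 7 other members are in or at the edge of the main cloud.

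In the wider integrin pathway a single gene was called. Of 90 genes in 4 lists (other α chains, other β chains, other ligands, and the adhesion complex inside the cell), 76 were tested, 1 fell (*Itga10*) and 0 rose, which is 1.32% beside 1.25% of all genes tested. At an unadjusted p under 0.05, 14 of the 76 passed (18.4%; 10 lower and 4 higher), beside 12.9% of all genes tested. The lists' common median was -0.02. Below the control in both arrays were 25 of the 76 genes, and 22 were above it, beside 29.1% and 25.7% of all genes tested.

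*Itga10*, the α chain of a collagen receptor best known from cartilage, fell from 426 to 175 in replicate 1 and from 257 to 149.99 in replicate 2. Both IWP-2 pools lay below both controls, and the mean log2 fold change was -1.03 ± 0.25 (SE between the arrays, n = 2; limma, adjusted p = 0.0175). A second probe that shares 54 bases with the first gave -1.37 and -0.85, so it is no independent measurement. Over 9 alternative settings the adjusted p of *Itga10* (limma) ranged from 0.002 to 0.84 and was under 0.05 in 6. The closing part gives the values that were not under 0.05. No other of the 7 α chains tested of 13 was called. The next was *Itga8*, the nephronectin receptor chain of renal mesenchyme, at -0.20 (adjusted p = 0.264), and its ligand *Npnt* was too dim to be tested, at 86.1 and 65.3 in replicate 1 and 78.1 and 57.5 in replicate 2.

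Of the 6 other β chains, 5 were tested and 0 were called by limma (1 at an unadjusted p under 0.05), with a median of 0.11. *Itgb3*, a partner of αv, was at 0.18 (adjusted p = 0.333), and *Itgb2*, the leukocyte β chain, at 0.14 (adjusted p = 0.517). Of the 36 other ligands, 34 were tested and 0 were called (8 at an unadjusted p under 0.05, 6 lower and 2 higher, beside 12.9% of all genes), with a median of -0.04 and a range of -0.24 to 0.37. The top 2 by size were *Fbln5*, an elastic fibre protein, at 0.37 (adjusted p = 0.0742), and *Adam17*, a membrane protease, at 0.27 (adjusted p = 0.325). The lowest were *Nid2* at -0.24 (adjusted p = 0.314), *Lamc1* at -0.24 (adjusted p = 0.233), *Nid1* at -0.23 (adjusted p = 0.358) and *Lama5* at -0.23 (adjusted p = 0.189), all of the basement membrane. *Nid2* was at -0.40 and -0.09 in replicate 1 and 2, and *Nid1* at -0.40 and -0.07. Other basement membrane genes of the list lay higher, among them *Col4a1* at -0.05 and *Lama1* at 0.11. *Madcam1*, the mucosal ligand of α4β7, was at 0.15. The basement membrane genes and *Madcam1* were picked after seeing their values.

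In the adhesion complex, 30 of 35 genes were tested and 0 were called (3 at an unadjusted p under 0.05), with a median of -0.01 and a range of -0.32 to 0.23. *Tln2*, a talin that links β chains to actin, was at -0.32 (adjusted p = 0.154), and *Rap1a*, a small GTPase that activates integrins through talin, was at 0.23 (adjusted p = 0.331). The tested genes of the 4 lists other than *Itga10* lay between -0.32 and 0.37. *Itga4* and *Itga10* lay below this range, but *Itga4* was chosen and *Itga10* named for their low values, so this is a description only.

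**Figure D5:**
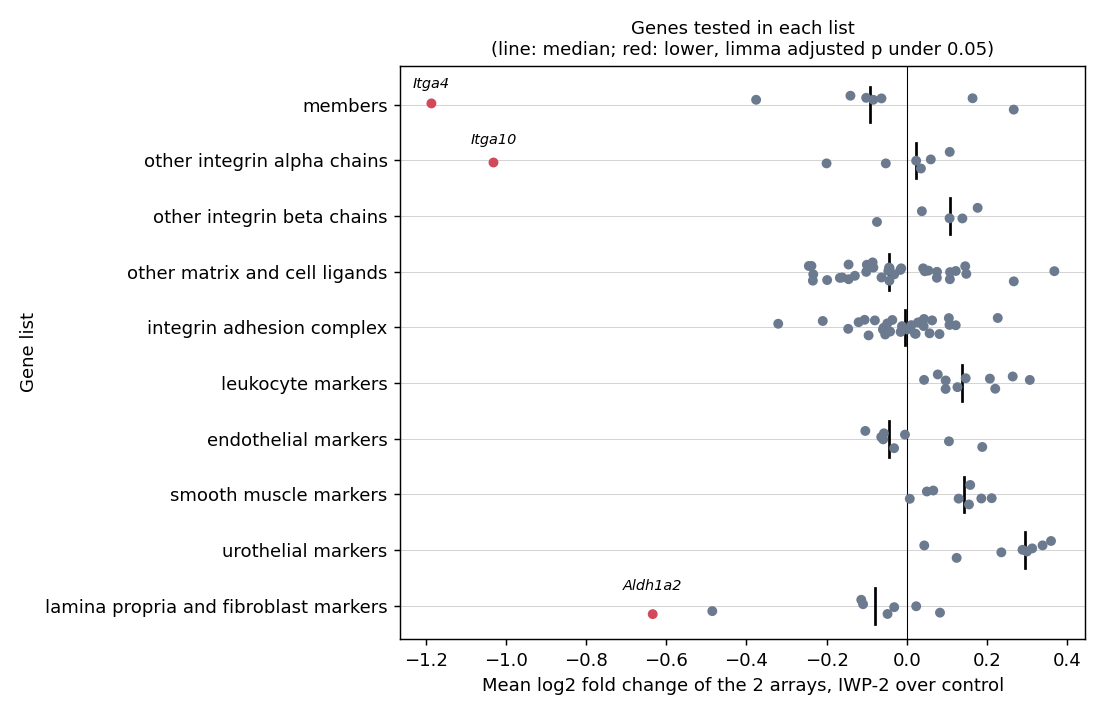
Mean log2 fold change of both arrays (IWP-2 over control, x axis) for each tested gene of the members, the 4 pathway lists and the 5 lists of cell type markers, with a black line at the median of the list and red points for genes called lower by limma at an adjusted p under 0.05. *Itga4* at -1.19 and *Itga10* at -1.03 stand apart from their lists, and the urothelial markers have the highest median, 0.29.

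RNA of whole ureters was measured, so fewer cells of a type and less RNA per cell cannot be told apart. By in situ hybridization, the study located *Itga4* RNA in the lamina propria at P0 and reported it reduced in IWP-2-treated ureters. Leukocytes, another cell type known for *Itga4*, had marker signals that summed to more with IWP-2 than in the control. Of 12 such genes 10 were tested and 0 were called (2 at an unadjusted p under 0.05, both higher, beside 6.27% of all genes that were higher at this p). Above the control in both arrays lay 8 of the 10, beside 25.7% of all genes tested. The summed signals were 9435 and 10930 (control and IWP-2) in replicate 1 and 10280 and 11130 in replicate 2. *Lyz2* was at 0.31 and *Fcer1g* at 0.10. Their defining marker *Ptprc* was dim, at 30.4 and 38.5 in replicate 1 and 38.1 and 41.1 in replicate 2.

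The 8 markers of lamina propria and fibroblasts were all tested. The study located RNA of 2 of them, *Aldh1a2* and *Thy1*, in the lamina propria at P0, the loose connective tissue under the urothelium. The rest are general fibroblast genes, which carry the list's sums, so the list does not stand for the lamina propria. *Aldh1a2*, which makes retinoic acid and marks lamina propria fibrocytes in the ureter, fell by 0.63 on the log2 scale (limma, adjusted p = 0.0281). *Thy1* was at -0.60 and -0.37 in replicate 1 and 2 (limma, adjusted p = 0.0547). In the list 0 others than *Aldh1a2* were called (2 of the 8 at an unadjusted p under 0.05, both lower, beside 6.64% of all genes that were lower at this p). The list's median was -0.08, with summed signals of 113500 and 99690 in replicate 1 and 102300 and 104000 in replicate 2. The sum thus lay below the control in the female array and slightly above it in the male array. The summed signals of the endothelial and smooth muscle markers, the other α chains, the other ligands and the adhesion complex went the same ways. Those of the other β chains and of the leukocyte and urothelial markers lay above the control in both arrays.

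Endothelial markers showed a median of -0.04 (8 tested, 0 called, 1 at an unadjusted p under 0.05), with summed signals of 24590 and 22870 in replicate 1 and 22210 and 22780 in replicate 2, *Egfl7* at -0.004 and *Cdh5* at -0.10. Smooth muscle markers had a median of 0.14 (8 tested, 0 called, 1 at an unadjusted p under 0.05), with sums of 99610 and 99450 and of 84960 and 99360, *Acta2* at 0.05 and *Tagln* at 0.16. Urothelial markers had a median of 0.29 (8 tested, 0 called, 6 at an unadjusted p under 0.05, all higher, beside 6.27% of all genes that were higher at this p), with sums of 89770 and 117300 and of 109500 and 118200, *Upk3a* at 0.12 and *Upk2* at 0.30. The muscle and urothelium genes of the labelled tissue were thus present, and the summed urothelial signal lay above the control in both arrays. The part of these cell types in the *Itga4* values was not tested.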

How the data were processed

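Total RNA of each pool was amplified from its poly(A) end, labelled as cRNA and hybridized by the authors to dual-colour Agilent mouse arrays. Both arrays were sub-arrays of 1 slide. The deposited intensity values are processed signals of Agilent Feature Extraction (12.2.0.7 in the file headers, 10.7.3.1 in the submitters' processing notes), background-subtracted, detrended and dye-normalized linearly and by LOWESS. The deposited log10 ratios of red over green and the authors' table of scores, signed fold changes with 1 decimal, were used only to check the direction, which matched for 100% of probes compared. Probe positions are those of the array files (mm9), without exon annotation, and all 9 members matched by accession to a RefSeq gene table.

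Of 157716 gene spots per array, 3.32% and 3.22% carried an outlier flag and were left out, and 0 were saturated. With limma 3.58.1 (R 4.3.3) each array was normalized by loess, the mean of the 4 spots per probe was taken, and means under 15 were set to 15. Each gene was represented by its probe with the highest mean log2 signal. Log2 ratios turned to IWP-2 over control were tested against 0 with lmFit and eBayes, with Benjamini-Hochberg adjustment over 14336 genes with a mean signal above 100 in a condition and 1 residual degree of freedom. Control and IWP-2 pools with 1 replicate number share sex and array, so they are paired by construction. The study names no test for its arrays, so a filter with its thresholds is given beside limma. P-values rest on the spread between the 2 arrays only, which eBayes moderates toward the spread over all genes tested. They use this moderated SE, which the SE between the arrays printed beside them enters only as 1 part. The moderated SE was 0.119 for *Itga10* and 0.099 for *Axin2*, below the SE between the arrays of 0.252 and 0.188.

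On data simulated for this comparison (14276 genes, 200 changed) limma called 80.6% of changes of 0.58, 98.6% of changes of 1 and 98.5% of changes of 2 on the log2 scale. The noise of every probe was drawn at random from the pooled differences between the real arrays, so no gene had a spread of its own. These shares therefore do not give the share of changes found on the real arrays. Members and lists were chosen with earlier results of these data known. All members were named, with the genes called in the pathway lists or otherwise the 2 with the largest mean change, *Axin2*, the marker genes called or otherwise the 2 with the highest signal, and the 5 genes nearest to *Itga4*. *Npnt*, *Madcam1*, *Nid1*, *Nid2*, *Lama5*, *Lamc1*, *Col4a1*, *Lama1*, *Thy1*, *Ptprc* and *Laptm5* were added after their values were seen. A further marker list is not reported here. Alternatives covered normalization, background correction, flags, floor, probe summary, signal filter, the replicate block and each array left out.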

Additional observations from a re-analysis of the deposited data

Results flagged for a closer look

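The log2 fold change of *Laptm5*, a lysosomal gene of leukocytes, went opposite ways in the arrays, at 0.54 in replicate 1 (female) and -0.10 in replicate 2 (male), a difference (replicate 1 minus replicate 2) of 0.645. The difference was not tested, as there was 1 array of each sex, and sex, dye orientation and pool cannot be told apart.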

How the results depend on the processing

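The *Itga4* log2 fold change was -1.19 and stayed below 0 in every alternative run. It moved to -0.59 with the mean of all probes, which averages in the probe at the floor and no longer passes the filter, and ranged from -1.56 to -0.81 with 1 array left out. The sign of *Itga9*, *Itga5*, *Itgb7*, *Fn1*, *Itgb1* and *Vcam1* was kept in 7 of 7 settings computed from both arrays, the main one included. The lower floor changed no member's value, and the mean of all probes could not change *Itga9*, *Itga5*, *Itgb7* and *Fn1*, with 1 probe each. With that mean, *Itga1* and *Itgav*, with 2 probes each, turned to 0.06 and 0.17. The 179 genes called by limma became 117 without further normalization, 402 with normexp background correction, 67 with the mean of all probes and 0 with no filter on signal (2029 at an unadjusted p under 0.05). The 1 member called (*Itga4*) became 0 in the first and the last 2 of these settings. Members at an unadjusted p under 0.05 were then 4, 5 and 3, against 4 in the main setting. Over all genes this p was met by 1820 of 14338, 1769 of 13580 and 2029 of 29924. The 1 pathway gene called (*Itga10*, adjusted p = 0.057 and 0.84) became 0 with the mean of all probes and with no filter, with 14 and 10 at an unadjusted p under 0.05, and 2 with median centring (*Itga10* and *Fbln5*). Median centring also moved the lower share of all calls from 70.9% to 56% and the median of all genes from -0.006 to 0.04. The 62 genes past the fold filter became 103 to 272 with 1 array left out. limma could not be run on a single array, which leaves no residual degrees of freedom. The cause of these changes was not tested.

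The fit with no replicate block, which ignores that a control and an IWP-2 pool share an array, called 8 genes, 0 members and 0 pathway genes. At an unadjusted p under 0.05 were 2 members and 3 pathway genes, beside 978 of all 14336 genes, with *Itga10* at an adjusted p of 0.56.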
